A study of Mus musculus with 10 samples.

Results

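Epidermal cells of knockout mice and of control mice were compared after the same skin treatment, a mixture of acetone and olive oil. The comparison took 6 of the 10 libraries of the series: 3 control and 3 knockout libraries, chosen by their labelled genotype and treatment and by no measured value. The back skin of all 6 was rubbed with 4 parts acetone to 1 part olive oil, 2 times a day for 3 days, and the labels place collection at day 5. Controls are labelled wild type, so nothing in the labels says that they carried Cre or a floxed allele. The knockout is labelled Gsdma1KO/KO;Gsdma3fx/fx;K14-Cre: a knockout of Gsdma1 (Gsdma in the annotation used here) on both alleles and 2 floxed alleles of Gsdma3, with Cre driven by the keratin 14 promoter. That promoter is active in basal keratinocytes of the epidermis and in the outer root sheath of the hair follicle, so the floxed gene is targeted in epithelial cells rather than in immune, vascular or dermal cells. The other 4 libraries came from skin rubbed with water, 2 of each genotype, and enter only where a genotype difference under the mixture is set beside that under water. The epidermis was lifted from the dermis with dispase and the cells were released with trypsin, so each library is bulk RNA of a cell suspension and can hold follicle, immune and vascular cells. Strain, age and sex are not given in the labels. They do not say whether a library stands for 1 animal, for a pool or for a repeat preparation, and p-values therefore reflect only how far the libraries of a group lie apart, technical variation included.

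Gasdermins are proteins that caspases and other proteases cleave, after which the freed amino-terminal part forms pores in membranes. Pore formation can release interleukin 1 and can end in pyroptosis, a lytic form of cell death. The A-type members are expressed mainly in skin and its appendages, and dominant mutations of Gsdma3 in mice are known for hair loss, follicle damage and sebaceous gland defects. The epidermis renews itself from a basal layer, marked by keratins 5 and 14, through suprabasal layers with keratins 1 and 10 to the cornified layer, and it houses Langerhans cells, which present antigen, and epidermal T cells. Acetone removes lipids from the skin surface, and an acetone and olive oil mixture is a common vehicle in contact sensitisation.

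Across 15184 genes tested, 3 passed the threshold between knockout and control: Gsdma3 was lower, and Pi15 and Krt6a were higher. These are 0.0198% of the genes tested by limma at a Benjamini-Hochberg adjusted p under 0.05. An unadjusted p under 0.05 was found for 1775 genes (11.7%), 882 with a positive and 893 with a negative difference. Differences were positive in 6 of 6 wound and follicle keratins, 13 of 13 small proline-rich genes, and 10 of 10 stefins and related cystatins. They were also positive in 53 of 56 interferon-stimulated genes, 28 of 28 Langerhans and dendritic cell genes and 18 of 18 endothelial genes. Of the endothelial genes, Emcn and Esam reached the level needed for testing only in knockout libraries. Kdr and Sox18 also needed knockout libraries to be tested. In the basal layer, only 1 of 22 genes had a positive difference. Over all genes 52.4% were positive. Apart from Krt6a, no member of these groups passed singly in that limma fit.

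Values are the submitters' normalised read counts per gene, and differences are log2(knockout) minus log2(control) of the value plus 1, which makes changes of weakly expressed genes look smaller than they are. A gene entered if its value was 10 or more in at least 3 of the 6 libraries. Dividing each value by the worth of 1 read gave back whole reads, 16848266 to 20043395 per library. No 2 libraries looked like the same library. On the first principal component, which held 43.9% of the variance, control libraries lay at 56.0, 24.3 and -11.3 and knockout libraries at 14.9, -50.4 and -33.4. Knockout replicate 1 therefore lay among the controls on this axis, and each group was spread widely along it. Defining markers of keratinocytes were high in all 6 libraries: the sum of Krt5, Krt14, Krt15 and Col17a1 ran from 721680 to 763931 in controls and from 500429 to 825241 in the knockout. Marker genes of other cells were also present, and those that moved with genotype are given beside the results that they touch.

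**Figure D1:**
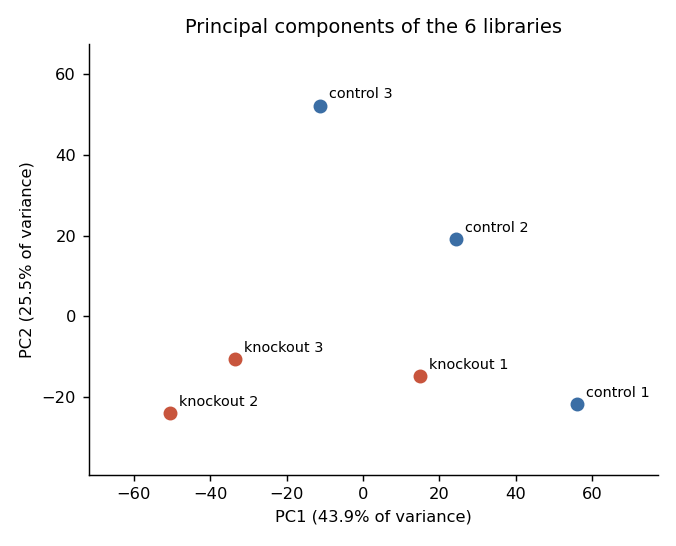
Each point is 1 library on the first 2 principal components of the log2 values of all genes tested, with axes in component units and the share of variance on each label. Knockout replicates 2 and 3 lie at -50.4 and -33.4 on the first component, and knockout replicate 1 lies at 14.9, between control replicates 2 and 3.

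Promoter sequences are shown for 3 members of the interferon and antigen presentation groups described below, because those groups share known promoter elements; the 3 were chosen after their values were seen. The sequences are the 250 bases before the start site from RefSeq on GRCm38.p6, in the direction of the gene, with matches in capitals. For Ifit1 (plus strand, chr19:34640639-34640888) and Oas3 (minus strand, chr5:120777660-120777909) the capitals mark GAAANNGAAA on either strand, the spaced repeat known as the interferon-stimulated response element core. For H2-Eb1 (plus strand, chr17:34305617-34305866) they mark CTGATTGG, the Y box of class II antigen presentation promoters, also searched on both strands.
Ifit1: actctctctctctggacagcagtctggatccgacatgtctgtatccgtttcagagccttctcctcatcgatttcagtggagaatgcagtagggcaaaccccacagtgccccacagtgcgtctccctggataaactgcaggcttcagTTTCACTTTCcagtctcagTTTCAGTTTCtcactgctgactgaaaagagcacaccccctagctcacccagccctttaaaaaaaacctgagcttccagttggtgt
Oas3: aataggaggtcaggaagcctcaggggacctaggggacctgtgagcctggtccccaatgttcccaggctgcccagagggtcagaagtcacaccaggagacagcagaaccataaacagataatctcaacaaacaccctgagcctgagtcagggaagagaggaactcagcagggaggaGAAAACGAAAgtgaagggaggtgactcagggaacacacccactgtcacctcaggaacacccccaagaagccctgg
H2-Eb1: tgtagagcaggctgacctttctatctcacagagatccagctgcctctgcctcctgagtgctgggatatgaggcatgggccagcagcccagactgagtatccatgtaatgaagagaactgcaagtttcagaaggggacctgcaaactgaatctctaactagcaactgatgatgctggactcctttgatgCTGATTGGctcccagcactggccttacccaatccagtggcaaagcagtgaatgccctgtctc
Ifit1 held 2 matches, the first at -104 from the start site, Oas3 held 1 at -75, and the Y box of H2-Eb1 began at -62. Of 56 interferon-stimulated genes tested, 41 matched the promoter table, and 19 of those (46.3%) held the interferon element within the 300 bases searched, which are 250 before and 50 after the start. Among all genes with a promoter there, 27025 in number, 3.99% held it (1079 genes). The Y box was in 2 of 5 matched class II genes (40%), against 1271 of all genes (4.7%). A match is a description of letters, and binding was not measured.

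Gsdma3, an A-type gasdermin (chromosome 11, 98626360 to 98638226 on GRCm38, plus strand), had 68.8, 63.1 and 177 normalised counts in the control libraries and 0, 0.901 and 0 in the knockout libraries. All 3 knockout libraries lay far below all 3 controls, and 2 of them held no read. In reads, the knockout libraries held 1 against 296 in the controls, a ratio of 0.00319 once the reads are scaled by the worth of 1 read in each library (95% exact Poisson interval 8.04e-05 to 0.0179, counting error only). The fitted difference was -6.23 ± 0.55 (SE, n = 3 and 3, limma, adjusted p = 0.0249), a size that depends on the added 1. Each knockout library thus held 0 or 1 read of the gene.

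Gsdma, the other targeted gene (chromosome 11, 98664351 to 98677708), gave 539, 535 and 733 normalised counts in controls and 261, 846 and 384 in the knockout. The groups overlapped, and knockout replicate 2 held the highest value of all 6. The difference was -0.44 ± 0.39 (adjusted p = 0.671). Gene-level values do not show which exons the reads came from, and the part removed by the Gsdma1 allele is not given in the sources used here, so this level does not check that allele. Gsdma, Gsdma2 and Gsdma3 are close copies, and reads shared among them may have been lost or split in counting. Gsdma2 was not listed for these libraries.

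Among the other gasdermins, 6 of 10 family members were tested, targets included. Gsdmc, a relative that caspase 8 can cleave, gave 238, 379 and 272 normalised counts in controls and 466, 1994 and 899.9 in the knockout. Each knockout library was above each control, with knockout replicate 2 far above the others, and the difference of 1.69 ± 0.46 did not pass (adjusted p = 0.301). Gsdmc has near copies in the mouse genome, so its level is uncertain in the same way.

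**Figure D2:**
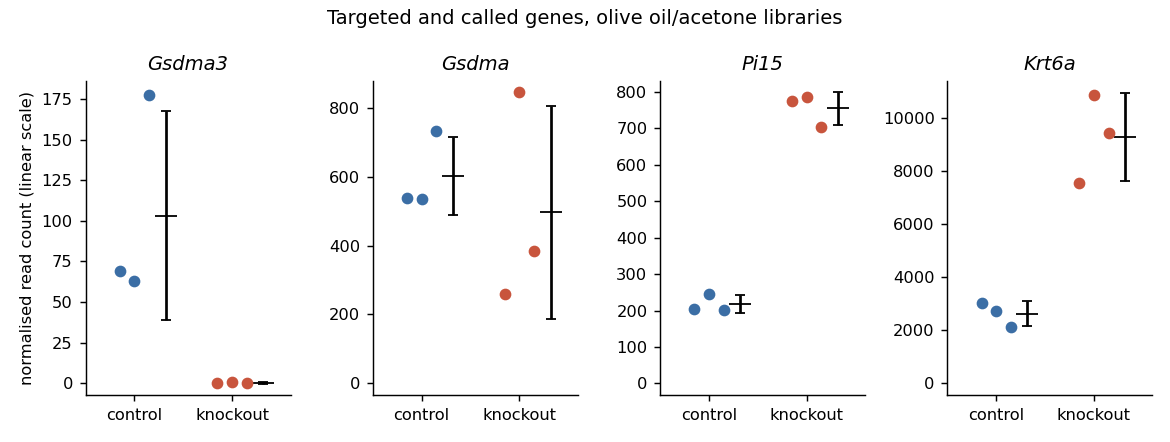
Each panel plots the normalised read count of 1 gene on a linear axis that differs between panels, with a point for each of the 3 libraries per group and, beside them, the mean ± SD. Gsdma3 separates the groups (0 to 0.901 against 63.1 to 177), Pi15 and Krt6a separate them in the other direction, and Gsdma overlaps.

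Pi15, a secreted peptidase inhibitor of the CRISP family (chromosome 1, 17601901 to 17630939), had 205, 247 and 201 normalised counts in controls and 776, 785 and 703 in the knockout. Values within each group were close together and the groups were far apart. The ratio of the means was 3.47 and the log2 difference 1.80 ± 0.17 (SE, n = 3 and 3, adjusted p = 0.0249).

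Krt6a, a keratin induced in wounded and thickened epidermis and present in the companion layer of the follicle (chromosome 15, 101689910 to 101694307, minus strand), gave 3025, 2736 and 2111 normalised counts in controls and 7558, 10879 and 9451 in the knockout. The lowest knockout library was above the highest control. Its log2 difference was 1.82 ± 0.19 (SE, n = 3 and 3, adjusted p = 0.0422), and the ratio of the means was 3.54. Krt6a and Krt6b are near-identical copies, so reads may have been divided between them. Follicle markers were also higher in sum in the knockout, as given with the wound keratins below. Their part in the Krt6a difference was not tested.

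How many genes passed depended on single libraries. Leaving out control replicate 1, 2 or 3, or knockout replicate 2 or 3, left 0 genes called by limma (826 to 2435 genes with an unadjusted p under 0.05), with the adjusted p of Gsdma3 between 0.0586 and 0.318. Leaving out knockout replicate 1 gave 91 called genes, 32 higher and 59 lower. edgeR's quasi-likelihood test on the recovered reads called 1 gene, Pi15 (0.00659% of the genes tested), and DESeq2 called 276 (1.82%), 201 higher and 75 lower. Gsdma3, Pi15 and Krt6a kept their direction in each of these fits. Rescaling by a median of ratios moved the adjusted p of Krt6a to 0.059, which ended its call.

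**Figure D3:**
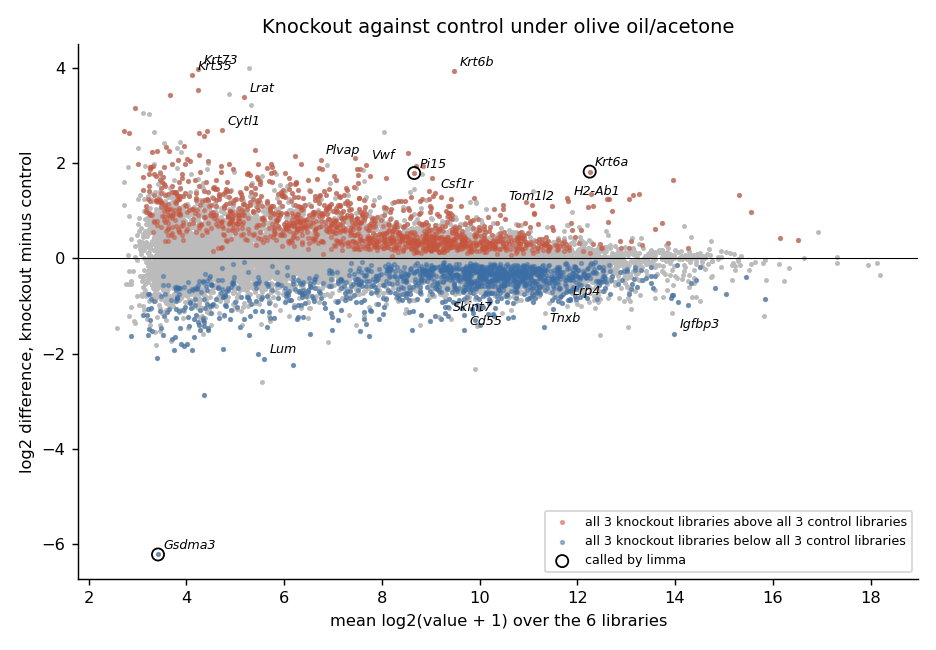
Each point is 1 of the 15184 genes, with the mean log2 value over the 6 libraries on the horizontal axis and the log2 difference, knockout minus control, on the vertical axis. Red and blue mark genes whose knockout libraries were all above or all below the controls, grey the others, and circles the 3 called genes: Gsdma3 at -6.23, Pi15 at 1.80 and Krt6a at 1.82.

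In 1317 genes all 3 knockout libraries were above all 3 controls (8.67% of the genes tested), and in 1230 they were all below (8.1%). Where 3 values are set against 3, the control libraries come first, in the order of their replicate numbers. The genes next named are those of lowest p or largest difference among these, so that their separation is how they were chosen. In the main limma fit, which has no replicate block, none of them passed the threshold. DESeq2 called all of them but Lum, with an adjusted p of 3.21e-08 for Plvap and 0.0341 for Dkk2, and edgeR called none.

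Among the genes with knockout libraries above, Plvap, which forms the diaphragms of fenestrated vessels, had 58.9, 41.1 and 56.1 normalised counts in controls and 176, 290.0 and 208 in the knockout (2.07 ± 0.28, adjusted p = 0.185). Vwf, the clotting factor carrier of endothelium and platelets, had 126, 61.2 and 138 against 369.7, 470.1 and 373 (1.97 ± 0.32, adjusted p = 0.235). For both, even the lowest knockout library was above 2 times the highest control. Ptprb, the endothelial receptor phosphatase, gave 53.9, 33.5 and 42.9 in controls and 138, 142 and 118 in the knockout (1.61 ± 0.28). Mgp, an inhibitor of calcification made by vessel and cartilage cells, gave 29.9, 17.2 and 18.7 against 84.1, 73.8 and 107 (1.99 ± 0.33).

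In the same direction, Tom1l2, an endosomal sorting adaptor, had 897, 1015 and 992 normalised counts in controls and 1876, 2405 and 2048 in the knockout (1.12 ± 0.15, adjusted p = 0.173). Cyp27a1, the mitochondrial sterol 27-hydroxylase, had 927, 854 and 766 against 1602, 1574 and 1499 (0.88 ± 0.14, adjusted p = 0.235). Both genes were tight within each group, and their knockout libraries were less than 3 times the controls. Gsta4, a glutathione transferase that acts on lipid peroxidation products, gave 103, 88.9 and 174 against 330.3, 413 and 442 (1.74 ± 0.28). Lrat, the enzyme that esterifies retinol, was at 17.0, 17.2 and 3.30 in controls and 51.9, 152 and 199 in the knockout (3.39 ± 0.69). Both genes separated the groups, with low values for Lrat.

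Among the genes with knockout libraries below, Cd55, which speeds the decay of complement convertases, had 1314, 1139 and 1806 normalised counts in controls and 681, 375 and 459 in the knockout (-1.51 ± 0.26, adjusted p = 0.235). Cd59a, which blocks the complement membrane attack pore, had 346, 335 and 283 against 163, 80.2 and 102 (-1.53 ± 0.28, adjusted p = 0.272). In both, knockout replicate 1 was the nearest to the controls of the 3.

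Also below, Tnxb, the matrix protein tenascin X, had 4010.2, 3954 and 4757 normalised counts in controls and 2064, 1214 and 1487 in the knockout (-1.45 ± 0.20, adjusted p = 0.19). Lrp4, a receptor that tempers Wnt signalling, had 4448, 4863 and 5255 against 2871, 2346 and 2731 (-0.88 ± 0.14, adjusted p = 0.235). Their highest knockout library was well under the lowest control. Limch1, an activator of non-muscle myosin, gave 383, 399.5 and 363 against 192, 129 and 159.9 (-1.27 ± 0.21). Man1c1, a Golgi mannosidase of N-glycan trimming, gave 623, 671 and 718 against 353, 231 and 313 (-1.18 ± 0.20). Skint7, of the butyrophilin-like Skint family whose founding member selects epidermal T cells, gave 941, 886 and 1172 against 338, 518 and 449 (-1.21 ± 0.20). Slc2a12, a glucose transporter, gave 730.2, 937 and 1166 against 531, 363 and 379.9 (-1.15 ± 0.23). For these genes too the groups did not overlap.

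Separated genes with some of the largest negative differences after Gsdma3 were less even across libraries. Lum, a dermal collagen-binding proteoglycan, had 148, 77.4 and 84.7 normalised counts in controls and 54.0, 38.7 and 4.70 in the knockout (-2.11 ± 0.78). Dkk2, a modulator of Wnt signalling, had 154, 109 and 239.8 against 27.0, 74.8 and 69.6 (-1.59 ± 0.45). Igfbp3, an insulin-like growth factor carrier made by basal cells, gave 48317, 23019 and 19727 in controls and 17328, 6636 and 7115 in the knockout (-1.58 ± 0.43). Knockout replicate 1 was near the lowest control for Igfbp3, and the adjusted p of these 3 genes ran from 0.301 to 0.375.

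Gene groups are described next by the number of tested members and their median log2 difference, beside a median of 0.02 over all genes tested. Counts of separated members stand beside 8.67% of all genes above and 8.1% below. In the main limma fit no tested member of the lists passed apart from Gsdma3 and Krt6a. DESeq2 called more, beside 276 of all genes tested (1.82%, 201 higher and 75 lower). It called 13 of 28 Langerhans and dendritic cell genes, 7 of 18 endothelial genes and 7 of 38 outer root sheath and bulge genes. It also called 6 of 28 sebocyte genes, 6 of 56 interferon-stimulated genes and 4 of 13 small proline-rich genes. All of these were higher in the knockout. Other lists held calls in either direction. Besides Gsdma3, those called lower included 2 of 37 Wnt, BMP, hedgehog and Notch genes. The basal layer, tight junction, sterol synthesis, melanocyte and Schwann, immediate early and heat shock, and circadian lists each held 1. In bulk libraries, fewer cells of a type and less RNA per cell cannot be told apart.

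Among genes of pyroptosis and other lytic cell death, 16 of 23 had a positive difference, 6 had knockout libraries all above and 1 all below, with a median of 0.20. Zbp1, a sensor of Z-form nucleic acid that is itself induced by interferon, had 40.9, 38.2 and 36.3 normalised counts in controls and 84.1, 116 and 72.4 in the knockout (1.19 ± 0.29, adjusted p = 0.296). Mlkl, the pore-forming effector of necroptosis, had 35.9, 33.5 and 37.4 against 87.2, 84.7 and 63.0 (1.10 ± 0.28, adjusted p = 0.296). Both separated the groups at low levels. Pycard, the inflammasome adaptor ASC, had 702, 1034 and 1439 against 1061, 2061 and 1284 (0.48 ± 0.31), with overlapping groups.

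Of the interleukin 1 family and its receptors, 18 were tested, with a median of -0.01. Il1r1, the signalling receptor, gave 1826, 1276 and 1592 normalised counts in controls and 1203, 747 and 891 in the knockout (-0.74 ± 0.21, adjusted p = 0.32). Il1r2, the decoy receptor, gave 2010.1, 1844 and 1990.0 against 1654, 1131 and 846 (-0.74 ± 0.23, adjusted p = 0.347), and Il1rl2, the receptor of interleukin 36, gave 3341, 3553 and 3999.9 against 3172, 2589 and 2790.0 (-0.35 ± 0.14). These receptors had all knockout libraries below the controls. Il1rn, the secreted antagonist, overlapped at 2283, 2379.9 and 2565 against 2066, 2583 and 1491 (-0.27 ± 0.20). Across the list 5 members had knockout libraries all below and 1 all above.

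Cytokines and chemokines made by keratinocytes had a median of 0.04 over 26 tested. Of these 3 separated upward (11.5%, near the 8.67% of all genes). Ccl22, a ligand of CCR4 made largely by dendritic cells, had 269, 185 and 332 normalised counts in controls and 418, 527 and 694 in the knockout (1.06 ± 0.27, adjusted p = 0.296). Ccl20, which attracts CCR6-bearing cells, ranged over more than 10 times among the controls, at 9785, 1839 and 591, and gave 3238, 1192 and 507 in the knockout (-0.81 ± 0.98). Its spread was larger than its difference.

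Basal layer genes were the group of keratinocyte genes with the lowest median, -0.79 over 22 tested. A positive difference was found in 1 of them, and 8 had knockout libraries all below. After subtracting each gene's mean over the 6 libraries on the log2 scale, the median over the list was 0.53, 0.41 and 0.20 in controls and 0.25, -0.89 and -0.48 in the knockout. Knockout replicate 1 sat with the controls, and replicates 2 and 3 were low. Without knockout replicate 1, 20 of the 22 genes were below, and 3216 of all genes (21.2%) were. Krt5 had 344782, 331010 and 345952 normalised counts in controls and 397657, 211592 and 223599 in the knockout (-0.36 ± 0.31), and Krt14 had 259290, 261508 and 281519 against 321339, 221892 and 199374 (-0.14 ± 0.27). The 2 defining keratins therefore overlapped between groups, with knockout replicate 1 the highest of all 6 for both. Sox6, a transcription factor of progenitor cells, gave 1968, 2073 and 1704 against 1505, 494 and 755 (-1.21 ± 0.35, adjusted p = 0.32), without overlap.

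Suprabasal genes did not share that pattern: the median over 25 tested was 0.07. Krt1 gave 68908, 108856 and 140270 normalised counts in controls and 112090, 236859 and 127987 in the knockout (0.56 ± 0.36), and Krt10 gave 128880, 160077 and 205117 against 133872, 260006 and 130333 (0.03 ± 0.33). Both overlapped, with knockout replicate 2 the highest. Calml3, a calmodulin-like protein of differentiating epithelium, had 1273, 1409 and 1256 against 2053, 4302 and 2969.6 (1.18 ± 0.25, adjusted p = 0.272), the only member tested with all knockout libraries above.

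Genes of the cornified envelope, the crosslinked protein shell of dead surface cells, gave a median of 0.14 over 24. Of these, 3 separated upward (12.5%, near the 8.67% of all genes) and 1 downward. Rptn, which encodes the envelope precursor repetin, had 215, 146 and 109 normalised counts in controls and 291, 1204 and 327 in the knockout (1.68 ± 0.52), with replicate 2 highest. Padi4, a peptidylarginine deiminase, had 4.99, 11.5 and 6.60 against 30.1, 42.3 and 28.2 (2.04 ± 0.42, adjusted p = 0.272), and only 1 control library reached the filter's 10. Late cornified envelope genes had a median of -0.19 over 19, with 2 separated upward (10.5%) and 0 downward. Lce1m had 6674, 2163 and 3579.7 in controls and 4117, 3398 and 932 in the knockout (-0.66 ± 0.58), with overlap. Lce3d, of the branch known to be induced by barrier damage, had 17.0, 4.78 and 6.60 against 21.8, 41.4 and 23.5 (1.64 ± 0.52). Lce3d separated upward at levels near the lower limit of the filter.

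Small proline-rich proteins, envelope precursors known to be induced by stress and injury, had 13 of 13 tested members positive, with a median of 1.24. Sprr4 had 303, 118 and 264 normalised counts in controls and 615, 1490.5 and 586 in the knockout (1.94 ± 0.45, adjusted p = 0.296). Sprr1b had 2877, 2133 and 1958 against 5401, 8619 and 3644 (1.27 ± 0.30, adjusted p = 0.296). Sprr1a overlapped, at 11755, 6789.8 and 5655 against 9619, 17517 and 6496 (0.43 ± 0.38). In all 3 genes knockout replicate 2 was the highest library. In the list, 4 members had knockout libraries all above, and the Sprr2 genes are near copies whose reads may be split.

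The wound keratin list held Krt6a, Krt6b, Krt16 and Krt17, which the epidermis makes after injury, and also Krt75 and Krt79 of the follicle. Its members were positive in 6 of 6, with 5 separated upward and a median of 1.15. Krt6a is the called member. Krt6b had 143, 83.2 and 506 normalised counts in controls and 638, 8363 and 4072 in the knockout (3.93 ± 0.94, adjusted p = 0.296). Its values ran over more than 10 times among the knockout libraries, and the lowest of them was near the highest control. Krt17 gave 43583, 28992 and 31444 against 47494, 101602 and 62118 (0.97 ± 0.30, adjusted p = 0.344). Krt79, a keratin of the follicle canal, gave 21122, 26969 and 29767 against 35691, 99541 and 75812 (1.33 ± 0.36, adjusted p = 0.301).

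Stefins and related cystatins, inhibitors of cysteine proteases, were positive in 10 of 10, with 6 separated upward and a median of 1.19. The list counts the cystatins Cst6 and Cst3 with the stefins. Cst6, cystatin M of the upper epidermis and follicle, had 8062, 8358 and 10587 normalised counts in controls and 14697, 50311 and 30219 in the knockout (1.66 ± 0.39, adjusted p = 0.296). Stfa3 had 7646, 12346 and 12406 against 19317, 21728 and 13119 (0.74 ± 0.25, adjusted p = 0.367). Knockout libraries were above controls for both, by a small margin in knockout replicate 3 for Stfa3. Stfa genes are a cluster of near copies, so their single levels are uncertain.

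Epidermal proteases and their inhibitors had a median of 0.31 over 23, 6 of them separated upward. Klk6 had 178, 184 and 156 normalised counts in controls and 382, 1678 and 792 in the knockout (2.21 ± 0.45, adjusted p = 0.272), and Klk10 had 317, 309 and 385 against 478, 1393 and 886 (1.32 ± 0.35, adjusted p = 0.3). Both are kallikreins, secreted serine proteases, and both had all knockout libraries above. Serpinb2, a serpin of stressed keratinocytes, went the other way with overlap, at 149746, 84826 and 52677 against 94741, 23559 and 24265 (-1.21 ± 0.57). Antimicrobial and S100 genes had a median of 0.39 over 20. Defb6, a beta defensin, had 3173, 4212 and 5433 in controls and 5558, 16843 and 10311 in the knockout (1.24 ± 0.37, adjusted p = 0.335). Its knockout replicate 1 exceeded the highest control by little.

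Tight junction genes were negative in most members: 4 of 23 had a positive difference, and the median was -0.27. Pard6b, a polarity protein, had 1661, 1174 and 1189 normalised counts in controls and 964, 584 and 454 in the knockout (-1.06 ± 0.28, adjusted p = 0.3), and Marveld3, a junction membrane protein, had 336, 434 and 535 against 231, 264 and 256 (-0.77 ± 0.21, adjusted p = 0.301). Both separated downward. Cldn1, the claudin on which the epidermal barrier depends, overlapped at 12666, 8782 and 8798 against 9365, 9325 and 6559.8 (-0.26 ± 0.21). In the list 3 members were below in all knockout libraries (13%, against 8.1% of all genes). Without knockout replicate 1, 8 were (34.8%, against 21.2% of all genes).

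Lipid barrier genes had a median of 0.26 over 37, and sterol synthesis genes one of 0.30 over 24. Alox12e, a lipoxygenase of skin, had 4559, 4933 and 7589 normalised counts in controls and 8094, 21692 and 13265 in the knockout (ratio of means 2.52, adjusted p = 0.301). Degs2, which makes phytoceramides, had 27.9, 28.7 and 47.3 against 70.6, 202 and 118 (1.80 ± 0.42, adjusted p = 0.296). Both had all knockout libraries above the controls. They were the only 2 of the 37 lipid barrier members that did (5.41%, against 8.67% of all genes). In the sterol list 21 of 24 were positive and none had knockout libraries all above.

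**Figure D4:**
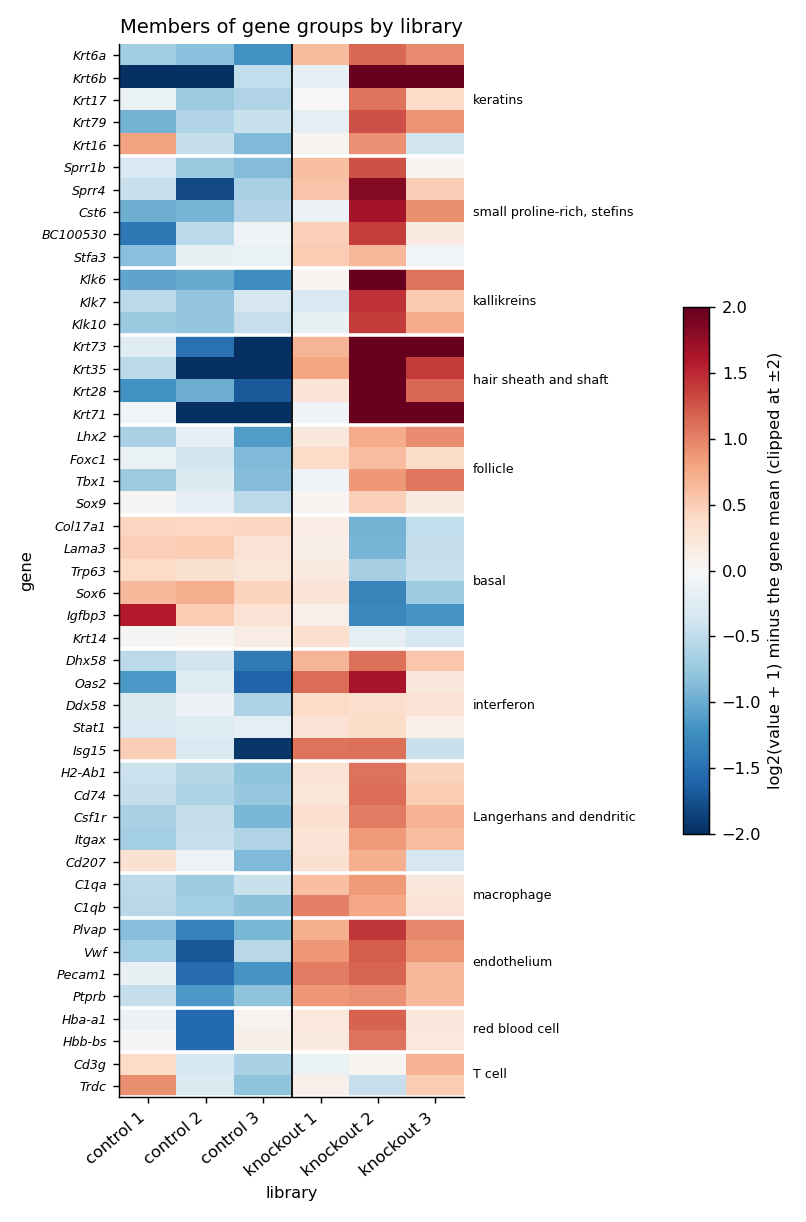
Rows are members of the groups, picked for display with their values known, and columns are the 6 libraries, controls on the left. Colour is log2 of the value plus 1 minus the gene's mean over the libraries, clipped at 2 in either direction. Knockout replicate 2 has the strongest colour in most keratinocyte and follicle rows, and for Igfbp3 and Sox6 knockout replicate 1 is paler than replicates 2 and 3.

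Hair shaft and inner root sheath genes gave a median of 1.52, over only 17 of 38 members that passed the filter on low values. Because a member could pass through the group where it is high, this count does not stand for the whole list. Krt28 had 7.98, 9.56 and 5.50 normalised counts in controls and 23.9, 111 and 45.1 in the knockout (2.57 ± 0.56, adjusted p = 0.294), and Krt35 had 11, 2.87 and 1.10 against 29.1, 208 and 45.1 (3.85 ± 0.85, adjusted p = 0.294). Krt73 had 15, 5.73 and 0 against 29.1, 162 and 84.6 (3.98 ± 1.01, adjusted p = 0.296). All 3 are keratins of the growing follicle and were highest in knockout replicate 2. The centred median of the list was -0.24, -0.91 and -0.30 in controls and -0.40, 1.90 and 1.00 in the knockout, so replicate 1 lay within the range of the controls. The sum of the follicle markers ran from 141 to 219 in controls and from 274 to 2261 in the knockout. Under water, Krt28 was high in 1 control library, at 2.87 and 438 in the water controls and 10.6 and 12.1 in the water knockout. Between water and the mixture, treatment and the sex of the animals cannot be told apart, as described below.

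Outer root sheath and bulge genes, which mark the resting follicle wall and its stem cells, were positive in 30 of 38, with 15 separated upward, 3 downward and a median of 0.42. Lhx2, a follicle stem cell regulator, had 611, 852 and 440.0 normalised counts in controls and 1119, 1594 and 1829.9 in the knockout (1.28 ± 0.27, adjusted p = 0.274). Foxc1, a factor of quiescent bulge cells, had 1252, 1072 and 745 against 1798, 2121 and 1780.0 (0.92 ± 0.20, adjusted p = 0.294). Krt15, shared by bulge and basal layer, was lower in all knockout libraries, at 45936, 51179 and 57570.2 against 41384, 36564 and 39912 (-0.39 ± 0.17, adjusted p = 0.431). Members of this list thus differed in both directions.

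Sebocyte genes, which serve the oil gland attached to the follicle, were positive in 25 of 28 with a median of 0.79. Fabp5, the epidermal fatty acid carrier, had 4909, 4864 and 7616 normalised counts in controls and 9082, 27342 and 11894 in the knockout (1.34 ± 0.38, adjusted p = 0.315). Fabp4, the carrier of fat cells and vessels, had 22.9, 24.9 and 37.4 against 99.7, 160.3 and 60.2 (1.80 ± 0.41, adjusted p = 0.296). In the list 6 members separated upward. The sum of the defining sebocyte markers ran from 196 to 484 in controls and from 480 to 1550 in the knockout, so these overlapped.

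Interferon-stimulated genes were positive in 53 of 56, with a median of 0.69, 21 members separated upward (37.5%) and 1 downward. Oas2 had 22.9, 44.0 and 16.5 normalised counts in controls and 114, 166 and 61.1 in the knockout (2.0 ± 0.47, adjusted p = 0.296). Ifit1 and Oas3, whose promoters are printed above, had 32.9, 60.2 and 26.4 against 145, 202 and 63.0 (1.69 ± 0.48) and 49.9, 93.7 and 13.2 against 182, 204 and 115 (1.99 ± 0.63). These genes of antiviral defence were at their lowest in control replicate 3, and the lowest knockout library was close to the highest control for Ifit1. Of the 21 separated members, 11 matched the promoter table and 5 of those held the interferon element (45.5%), against 46.3% of the whole list. Nlrc5, the activator of class I antigen presentation, had 4899, 4003 and 3923 against 3495, 2933 and 3064 (-0.43 ± 0.15, adjusted p = 0.367), below in all knockout libraries. Tap1, the peptide transporter of the same pathway, overlapped at 3509, 3777 and 4559 against 4550.0, 4543 and 4339 (0.19 ± 0.14). Markers of cells other than keratinocytes moved with genotype beside this list: macrophage markers summed to 180 to 192 in controls and 346 to 502 in the knockout, and Langerhans markers to 8875 to 12505 and 15948 to 26690. Their part in the result was not tested. The receptors and sensors that lie before these genes had a median of 0.01 over 23.

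Langerhans and dendritic cell genes were positive in 28 of 28, with 19 separated upward (67.9%) and a median of 1.09. Cd74, the invariant chain of class II molecules, had 4462, 4077 and 3679.8 normalised counts in controls and 7347, 13526 and 8861 in the knockout (1.24 ± 0.22, adjusted p = 0.272). H2-Ab1, a class II beta chain, had 2654, 2413 and 2058 against 4391, 7596 and 4897 (1.21 ± 0.22, adjusted p = 0.272). H2-Eb1, whose promoter is printed above, had 2169.7, 2035 and 1702 against 3496, 5794 and 3664 (1.10 ± 0.21). For these class II genes every knockout library was above every control, and replicate 2 was the highest. Csf1r, the receptor on which Langerhans cells depend, had 345, 390.0 and 287 against 678, 1118 and 886 (1.37 ± 0.22, adjusted p = 0.235). Of the 4 defining Langerhans markers, Cd74 and H2-Aa, both of class II antigen presentation, had knockout libraries all above. Cd207, or langerin, the marker most particular to these cells, overlapped at 1198, 909 and 526 against 1194, 1595 and 764 (0.45 ± 0.35, adjusted p = 0.627), and Epcam overlapped too (0.39 ± 0.21). The sum of the 4 ran from 8875 to 12505 in controls and from 15948 to 26690 in the knockout.

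Macrophage genes were positive in 17 of 18, with a median of 0.85. C1qb, a chain of complement C1q, had 47.9, 44.0 and 39.6 normalised counts in controls and 143, 122 and 86.5 in the knockout (1.38 ± 0.28, adjusted p = 0.272), at a low level. All 4 defining markers (C1qa, C1qb, C1qc and Adgre1) had knockout libraries above, with sums of 180 to 192 in controls and 346 to 502 in the knockout. Epidermal T cell genes were positive in 24 of 30 with a median of 0.28: 1 of 30 separated upward and 1 downward, none of the 4 defining markers did, and their sums overlapped at 2816 to 7890 and 3869 to 6954. Thy1, carried by these T cells, had 6081, 4385 and 2943 in controls and 4962, 2985 and 4039.7 in the knockout (-0.13 ± 0.28).

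Endothelial genes were positive in 18 of 18, with 13 separated upward (72.2%) and a median of 1.53. Pecam1, an adhesion molecule of vessel walls, had 93.8, 35.4 and 45.1 normalised counts in controls and 213, 234 and 165 in the knockout (1.90 ± 0.37, adjusted p = 0.272). Sox18, a vascular transcription factor, had 19.0, 7.65 and 0 against 27.0, 98.2 and 96.9 (3.54 ± 1.04, adjusted p = 0.325). Of 22 members on the list, 18 passed the filter on low values, Emcn and Esam only through knockout libraries. Kdr had 3.99, 7.65 and 14.3 in controls and 14.5, 19.8 and 16.9 in the knockout. Kdr and Sox18 therefore also needed knockout libraries to reach 10 in 3 libraries. Esam, an adhesion molecule of vessel junctions named here after its values were seen, was at 8.98, 5.73 and 9.90 in controls and 32.2, 53.1 and 35.7 in the knockout, so the counts over tested members do not stand for the whole list. The 4 defining markers (Pecam1, Cdh5, Kdr and Emcn) were all above, with sums of 58.3 to 155 in controls and 245 to 358 in the knockout. Fibroblast and muscle markers did not share this. Those of fibroblasts summed to 4388 to 5964 in controls and 2254 to 5373 in the knockout, and those of muscle to 66.9 to 123 and 71.5 to 119. The 4 macrophage markers, given above, did share it. Red blood cell markers summed to 4000 to 12535 and 13466 to 25430. How far the share of vessel or blood cells in the suspension enters the differences of Plvap, Vwf, Ptprb and Fabp4 was not tested. Among pigment and nerve genes, Pmel of melanocytes had 324, 269 and 239 against 490.2, 382 and 437 (0.66 ± 0.19), and Ngfr, a neurotrophin receptor, had 308, 476 and 405 against 222, 113 and 204 (-1.18 ± 0.30). The first separated upward and the second downward.

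**Figure D5:**
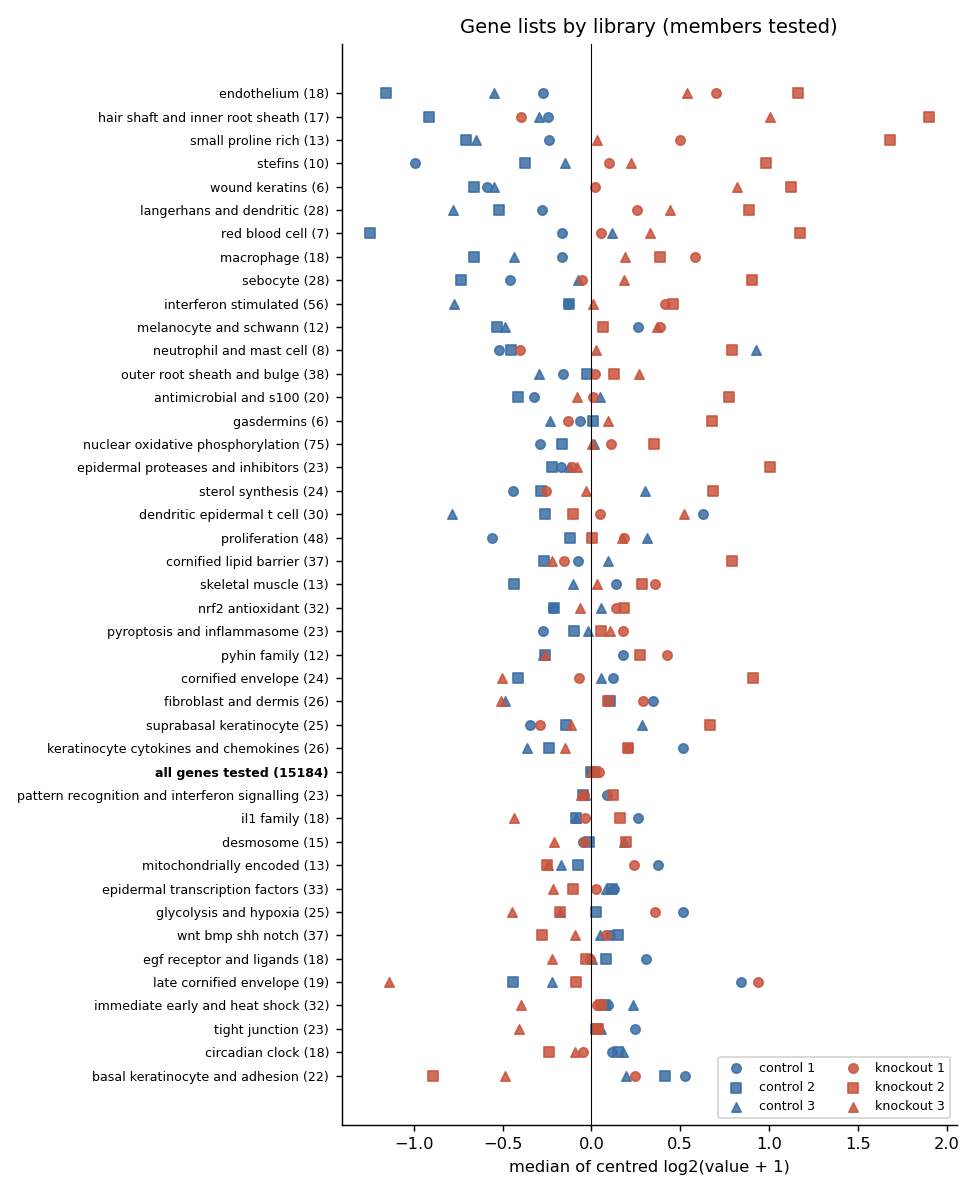
Each row is a gene list with at least 6 tested members, sorted by its median log2 difference, and each point is the median over its members in 1 library of the centred log2 value, with colour for genotype and shape for replicate. Endothelial and Langerhans lists have all knockout points above all control points, while in the basal list knockout replicate 1 (0.25) lies among the controls (0.20 to 0.53).

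Growth and signalling genes showed smaller differences. Proliferation genes were positive in 42 of 48 with a median of 0.26, but 3 separated upward and 2 downward. Mki67, the common marker of cycling cells, had 2949, 4628 and 5835 normalised counts in controls and 4378, 3439 and 5618 in the knockout (0.03 ± 0.27), and Ccnd1, the cyclin of cell cycle entry, had 1519, 1319 and 1465 against 1162, 770.0 and 977 (-0.58 ± 0.18, adjusted p = 0.337). Mki67 overlapped and Ccnd1 was below in all knockout libraries. Of the genes of Wnt, BMP, hedgehog and Notch signalling, 10 of 37 separated downward (27%, against 8.1% of all genes) and 4 upward, with a median of -0.17. Without knockout replicate 1, 21 were below (56.8%, against 21.2% of all genes) and 6 above. Dll1, a Notch ligand of basal cells, had 1568, 1647 and 1363 against 1096, 542 and 715 (-1.02 ± 0.25, adjusted p = 0.296). Erbb3, a receptor of the EGF receptor family, had 6882, 7099 and 7087 against 6103, 4762 and 4954 (-0.42 ± 0.14, adjusted p = 0.366). Both were lower in every knockout library. Erbb3 belongs to the EGF receptor list, where 2 of 18 members separated downward (11.1%, near the 8.1% of all genes) and 0 upward.

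Among rapid response factors, Fosl1, an AP-1 subunit of migrating keratinocytes, had 1293, 1261 and 1159 normalised counts in controls and 907, 419.7 and 424 in the knockout (-1.18 ± 0.29, adjusted p = 0.296). Egr2 had 2013, 1728 and 1761 against 2646, 3661 and 2848 (0.72 ± 0.16, adjusted p = 0.294). These 2 factors separated in opposite directions, and the list had 6 of 32 below and 1 above. Genes of the circadian clock had a median of -0.31 over 18. Per2, a repressor of the clock, had 394, 312 and 355 against 250.3, 186 and 231 (-0.67 ± 0.20, adjusted p = 0.329), and Hlf, a factor of clock output, had 445, 718 and 872 against 379, 340.4 and 356 (-0.86 ± 0.25, adjusted p = 0.315). Both were below in all knockout libraries, and the hour of collection is not given in the labels.

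Nuclear genes of oxidative phosphorylation were positive in 75 of 75, with 36 separated upward (48%) and a median of 0.31, a small size. Atp5b, a catalytic subunit of ATP synthase, had 17096, 18188 and 19612 normalised counts in controls and 21403, 21981 and 20038 in the knockout (0.21 ± 0.14, adjusted p = 0.583). The 13 genes encoded in mitochondrial DNA had 3 positive and a median of -0.12, so the nuclear and mitochondrial subunits did not share a direction. Glycolysis genes had 8 of 25 positive, with a median of -0.14 and no member separated in either direction. Of the antioxidant genes controlled by NRF2, 6 of 32 separated upward. Gpx2, an epithelial glutathione peroxidase, had 35.9, 50.7 and 62.7 against 86.2, 181 and 112 (1.29 ± 0.35, adjusted p = 0.301).

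The genotype difference under the mixture was then set beside that under water. A test of the difference between the 2 differences called 0 of 15958 genes by limma (0% of the genes tested; 1900 with an unadjusted p under 0.05), 0 by edgeR and 166 by DESeq2. Pi15 under water had 162 and 682 normalised counts in the control libraries and 233 and 267 in the knockout libraries, and Krt6a had 965 and 4832 against 1286 and 1504. In both genes water control replicate 2 was far above replicate 1 and above both knockout libraries, while both knockout libraries lay above replicate 1, so that a direction under water rests on that 1 library. The difference of differences was 2.21 for Pi15 (adjusted p = 0.355) and 2.46 for Krt6a (adjusted p = 0.355). For Gsdma3 it was -0.09, with 62.1 and 283 in the water controls and 2.64 and 0 in the water knockout. Plvap had 35.4 and 88.2 against 11.5 and 71.7 under water, with a difference of differences of 2.99 (adjusted p = 0.355), and Tnxb had 5960.3 and 3137 against 4196 and 4779.9, with -1.50 (adjusted p = 0.355). None of these passed. The Y-linked gene Ddx3y was at 2342, 1885 and 1993 against 1899, 1494 and 1426 in the 6 libraries of the mixture and at 0 in all 4 water libraries, so treatment and the sex of the animals cannot be told apart in this comparison. Within the mixture both genotypes carried it in every library.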

How the data were processed

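RNA of epidermal cell suspensions was sequenced, with 3 libraries per group in this comparison. The deposited values are a normalised read signal per gene that the authors made with Trimmomatic 0.38, featureCounts 2.0.0 and DESeq2 1.26.0 on GRCm38 (mm10), per the submitters' processing notes. Which aligner and annotation they used, and whether counting used strand, is not given in the sources used here. The kit named in the labels' protocols does not mark strand, so overlapping and antisense genes cannot be told apart. Identifiers of all 17983 genes matched GENCODE on GRCm38. Files of the 2 groups listed 16014 and 16557 genes, and 15991 were listed in all 6.

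The main test was limma 3.58.1 in R 4.3.3 (two-sided, with a mean-variance trend) on log2 of the value plus 1, for genes that reached 10 in 3 libraries (in 2 when a library was left out), at a Benjamini-Hochberg adjusted p under 0.05. Values were whole multiples of 1 step per library (100% of values, tolerance 0.1 read), so reads were recovered for edgeR 4.0.16 and DESeq2 1.42.0 as alternatives, without further rescaling. Intervals from reads cover counting error only. Named genes are the targets, the called genes, the 12 separated genes of lowest p and the 8 of largest difference in each direction with a mean of 50 or more, and 4 of each list (2 of lowest p, 2 of highest mean), besides fixed markers and the promoters printed; some items under this rule are not reported here. The members and lists were chosen with earlier results of these data known.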

Additional observations from a re-analysis of the deposited data

How the results depend on the processing

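The number of genes called was 3 with a pseudocount of 0.5 or 5, without a filter on low values, with equal totals and with TMM scaling, and 2 with scaling by a median of ratios. It was 1 with a filter at 50, 0 without a mean-variance trend, 0 with all 10 libraries in the fit, 1 by edgeR and 276 by DESeq2, which left 884 adjusted p values as NA. With 1 replicate left out it ran from 0 to 91, the latter without knockout replicate 1. The 0 counts by limma stood beside 1551 genes with an unadjusted p under 0.05 without a trend and 1901 with all 10 libraries. For Gsdma3 the difference stayed negative in every fit, but the adjusted p passed the threshold no longer with the filter at 50 (-6.23, 0.0511), without a trend (-6.23, 0.0791), with all 10 libraries (-6.23, 0.0555) or by edgeR (-7.87, 0.061), and in 5 of 6 fits with 1 library left out (-6.53 to -5.76). Gsdma was called in no fit. The interaction with treatment gave 0 genes by limma with either pseudocount and by edgeR, and 166 by DESeq2. The cause of these differences between tools was not tested. Equal totals moved the median of all genes to 0.11. Of 659 list medians under alternatives, 651 moved by less than 1 SD between libraries and 8 by more. Of 1898 values of the 106 other named genes under alternatives, 1788 kept direction and side of the threshold, 85 passed it newly (62 by DESeq2, 20 without knockout replicate 1, 3 with the replicate block), 17 no longer passed it and 8 changed sign. The 17 were Krt6a in 10 fits (adjusted p 0.0511 with the filter at 50, 0.059 with a median of ratios, 0.061 by edgeR, 0.208 without a trend, 0.313 with all 10 libraries and 0.0713 to 0.352 in 5 fits with 1 library left out) and Pi15 in 7 (0.136 without a trend, 0.313 with all 10 libraries and 0.0586 to 0.318 in 5 fits with 1 left out). Those 8 sign changes arose when 1 library was left out, in genes that were not called. Over these fits Ccl20 ran from -1.76 to 0.26, Krt10 from -0.29 to 0.21, Lce1m from -1.07 to 0.01, Mki67 from -0.24 to 0.25 and Thy1 from -0.40 to 0.12.

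With the replicate number as a block, limma called 9 genes (Krt6a, Pi15 and Tom1l2 higher; Epgn, Flvcr1, Gsdma3, Igfbp3, Tnfsf18 and Tnxb lower). Deviations of same-numbered libraries from their group means correlated at 0.35, -0.12 and 0.15. These 3 values are too few to say whether the numbers pair the samples, and the labels do not say it. Leaving out knockout replicate 1 or 2 in the counts of separated members was added after the data were seen: without the first, 17.1% of all genes were above and 21.2% below, and without the second 10.7% and 10%. With 3 libraries per group, the SE of a log2 difference was 0.14 for Lrp4 and 0.94 for Krt6b, which sets how small a difference could be called.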

Other observations

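Genes of several further groups are given as values. The PYHIN family, sensors of DNA and their relatives, had 9 of 12 tested members positive, 3 separated upward and 1 downward, with a median of 0.17. Mndal had 109.7, 87.0 and 77.0 normalised counts in controls and 139, 187 and 157 in the knockout (0.82 ± 0.25, limma, adjusted p = 0.335). Ifi202b overlapped and ran the other way, at 20770.4, 11223 and 4100.0 against 7349, 2434 and 1870.3 (-1.61 ± 0.64, adjusted p = 0.397). Members of this family are close copies, so reads may be split between them. Desmosome genes, which join keratinocytes to each other, had a median of -0.10 over 15 tested, and epidermal transcription factors had one of -0.13 over 33, with 4 separated downward and 1 upward. Gata3, a factor of the epidermis and inner root sheath, had 7688, 6325 and 6574 in controls and 5234, 4843 and 4398 in the knockout (-0.51 ± 0.14, adjusted p = 0.311), below in all knockout libraries. The EGF receptor and its ligands had a median of -0.18 over 18.

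Genes of fibroblasts and dermis had a median of 0.08 over 26, skeletal muscle 0.22 over 13, melanocytes and Schwann cells 0.56 over 12, neutrophils and mast cells 0.53 over 8, and Merkel cells 0.44 over 3. Defining Merkel markers summed to 5.50 to 10.5 normalised counts in controls and 7.52 to 18.7 in the knockout, with Krt20 and Atoh1 not listed. The files of the knockout group listed 566 genes that those of the control group did not, of which 14 had 10 or more normalised counts in all 3 libraries and 0 had 50 or more. Of 23 genes listed for the control group alone, 0 reached 10 in all 3.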
